A study of Rattus norvegicus with 12 samples.

Results

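Potassium channels and the related HCN pacemaker channels set the resting voltage of a cell and end or pace its electrical activity. Their genes were followed here in rat sciatic nerve stumps. Of 30562 gene rows in the deposited table, 95 carried a symbol of the Kcn or Hcn families, and the 64 with at least 10 counts in at least 3 of the 12 samples were kept. They comprised 46 genes for pore-forming subunits, 12 for auxiliary subunits and 6 for modifier subunits, and each of the 64 entered the test.

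The samples came from 4 groups of 3. VP4:2 were stumps in a truncated-cone conduit labelled 4:2 that was loaded with verteporfin, a compound used to stop the coactivator YAP, which responds to mechanical cues, from acting through TEAD factors. CC4:2 were stumps in the same conduit without it, CC4:4 were stumps in a conduit labelled 4:4, and Control were stumps named only as control. The study asked how such conduits relieve pain after nerve injury. The strain, age and sex of the rats, the time of sampling, what the control stumps received and whether each stump came from its own rat are not stated in the sources used here. The p-values thus measure only how these samples differ among themselves, and that spread may be technical. Poly(A) RNA of the whole stump was sequenced, which mixes all its cell types.

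In myelinated nerve, the voltage-gated subunits Kcna1 and Kcna2 are best known from the axon membrane beside the node of Ranvier, where they limit repetitive firing. Schwann cells carry potassium channels of their own, and inward rectifiers and leak channels let glia take up the potassium that active axons release. Lymphocytes and macrophages use another set, above all Kcna3 and Kcnn4, to hold the negative voltage that drives calcium entry. HCN channels open on hyperpolarisation and carry a depolarising current, and in sensory neurons of rodents they are studied for their part in neuropathic pain.

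Each library held 13763067 to 18632280 counts, of which the 64 channel genes took 5821 to 23042. Levels below are TMM-scaled CPM, the counts of a gene as a share of the scaled library total. They are not divided by transcript length, so they compare samples for one gene and not genes with each other. Of the 64 genes, 32 reached 10 counts in all 12 samples and none (0) did so in 1 group alone. Just inside the rule lay Kcnf1 and Kcng1, with 10 or more counts in 3 samples (0 to 26 and 0 to 20 counts over the 12 samples), and just outside it Kcnv2, with 2 such samples (0 to 41 counts). Kcnq3 reached the minimum in 1 sample and was not kept. Of the 31 rows not kept, 23 stayed under 10 counts in every sample.

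Schwann cell markers, which define peripheral nerve, were present in every library, and marker sums differed between the groups. The summed level of 10 Schwann cell markers was 13400 to 20000 CPM in VP4:2, 14900 to 38200 CPM in CC4:2, 2870 to 3670 CPM in CC4:4 and 490 to 4980 CPM in Control. Control replicate 1 stood apart at 490 CPM, with 55200 CPM of 7 fibroblast markers against 13500 and 12400 CPM in the other controls. Most of the 55200 CPM came from the collagen genes Col1a1 (29400 CPM) and Col3a1 (20500 CPM). Lum was also higher there than in the other controls. Pdgfra (213, 236 and 181 CPM in Control replicates 1, 2 and 3) and Pi16 (31, 29.5 and 35.8 CPM) did not stand out. The sum of 10 macrophage markers was 5740 to 9130 CPM in VP4:2, 1700 to 1990 CPM in CC4:2, 6440 to 7460 CPM in CC4:4 and 7350 to 12900 CPM in Control. The 10 neuron markers were mixed and summed to 29.6 to 154 CPM. Snap25, Syt1 and Elavl4 stayed at or under 2.81, 0.265 and 0.117 CPM in every library, while Nefl and Nefm reached 42.6 and 55.5 CPM in CC4:2 replicate 1 and Stmn2 reached 99.6 CPM in a CC4:4 library.

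Stumps in the CC4:2 conduit held more transcripts of the Kv1 pores Kcna1, Kcna2 and Kcna5, the inward rectifier Kcnj10 and the pacemaker channels Hcn2 and Hcn4 than control stumps. They held fewer of Kcna3 and Kcnn4, best known from immune cells, and of the Kv1 partner Kcnab2. CC4:2 stumps differed from control stumps in 33 of the 64 channel genes (51.6%), 22 higher and 11 lower, against a background of 43.5% of all 15712 genes tested (20.3% higher and 23.2% lower). The median log2 fold change of the 64 genes was 0.62, beside -0.05 for all genes. In CC4:2 against CC4:4, 32 of 64 were called (21 higher, 11 lower), beside 39.2% of all genes (18.5% higher and 20.7% lower). These 2 comparisons share the CC4:2 samples. CC4:4 against Control gave 0 calls among the 64 with edgeR, where 0% of all genes passed, and 0 with DESeq2 or limma-voom. At an unadjusted p under 0.05, edgeR counted 3 of the 64 and 830 of all genes.

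With verteporfin in the conduit, Kcnn4 was higher and Hcn2 lower than in CC4:2, and Kcna1 and Kcnj10 were higher than in Control. Of these calls, that of Kcnn4 alone held whichever library was left out. VP4:2 stumps differed from control stumps in 14 channel genes (8 higher, 6 lower), or 21.9% beside 18.9% of all genes (9.3% higher and 9.57% lower). VP4:2 differed from CC4:2 in 8 (5 higher, 3 lower), or 12.5% beside 6.23% of all genes. In that comparison 5.23% of all genes were higher and 0.999% lower. With the replicate number as a block, 4 of the 8 were called, Kcnn4, Kcnj2, Hcn2 and Kcnv1, beside 5.43% of all genes. The median log2 fold change of the 64 genes was 0.36 for VP4:2 against Control and -0.36 for VP4:2 against CC4:2. Whichever library was left out, 5 of the 14 calls of VP4:2 against Control held, and 1 of the 8 calls of VP4:2 against CC4:2. For CC4:2, 28 of the 33 calls against Control and 24 of the 32 against CC4:4 held in this way. By the plainer measure of libraries that did not overlap between groups, CC4:2 lay above Control in 24 genes and below it in 10, or 53.1% beside 49.3% of all genes. CC4:2 lay above CC4:4 in 23 and below it in 12 (54.7% beside 53.1%). VP4:2 lay above Control in 18 and below it in 10 (43.8% beside 38.6%), VP4:2 above CC4:2 in 8 and below it in 11 (29.7% beside 32.2%), and CC4:4 above Control in 1 and below it in 3 (6.25% beside 7.42%).

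**Figure D1:**
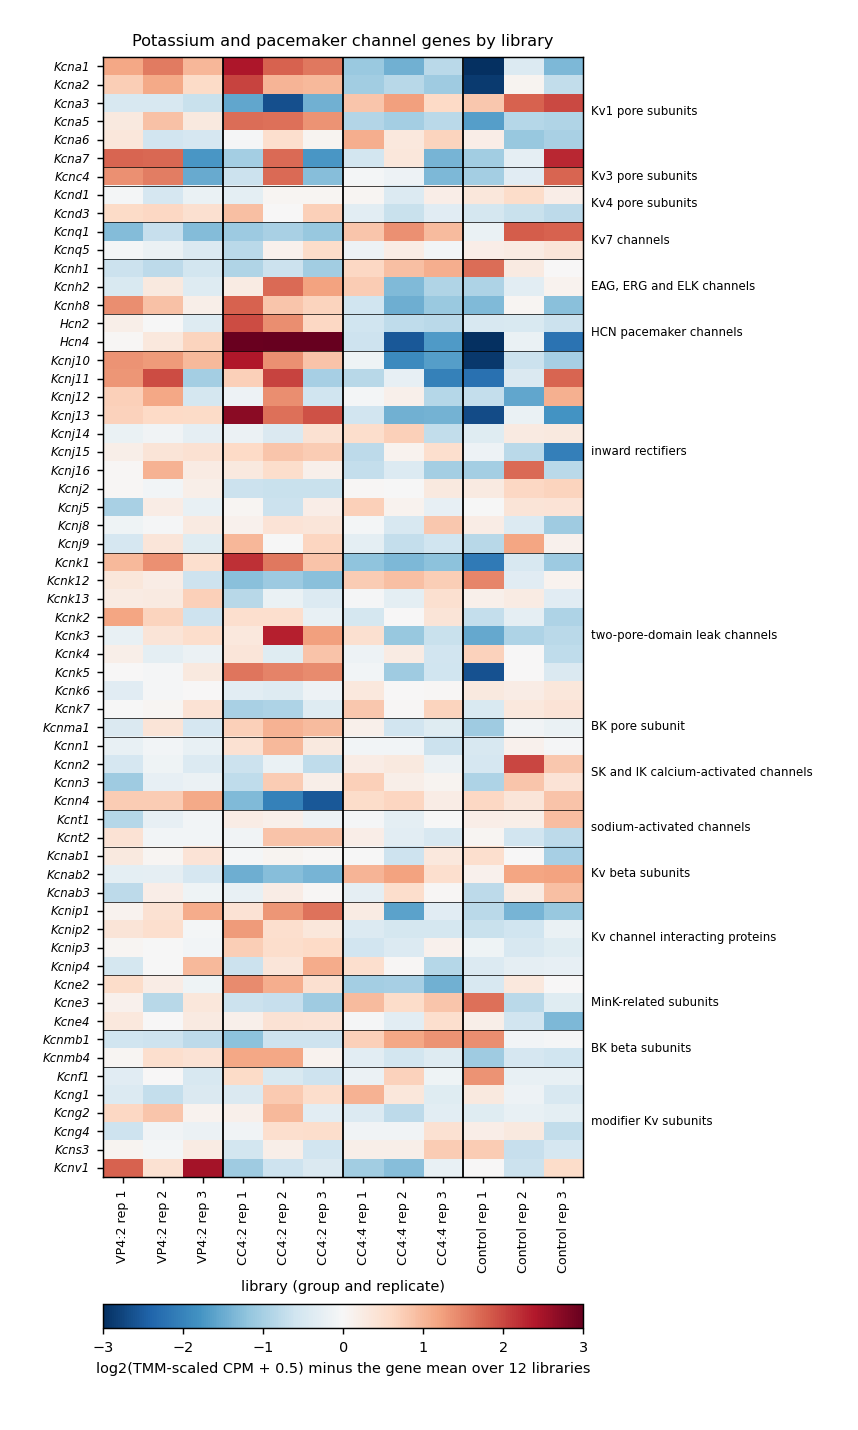
Level of 61 of the 64 channel genes in the 12 libraries, as log2(CPM + 0.5) minus the mean of that gene over the libraries, with colours limited to -3 and 3. Genes run down the page by family and libraries across it as VP4:2, CC4:2, CC4:4 and Control. In all 3 CC4:2 columns Hcn4 is above its mean and Kcnn4 below it.

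Of the 64 genes, 36 were called in at least 1 of the 5 comparisons and 28 in none. The most frequent pattern was a rise in CC4:2 against both CC4:4 and Control and no other call, seen in 10 genes. A further 7 had this rise and were also higher in VP4:2 than in Control. Another 4 genes were lower in CC4:2 than in both CC4:4 and Control and lower in VP4:2 than in Control. The same counts were not made over all genes, so they do not set the channel genes apart. Of all genes, CC4:2 against Control alone called 43.5% and CC4:2 against CC4:4 alone 39.2%. In a bulk library fewer cells of a type and less RNA per cell cannot be told apart, which applies to every value below.

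**Figure D2:**
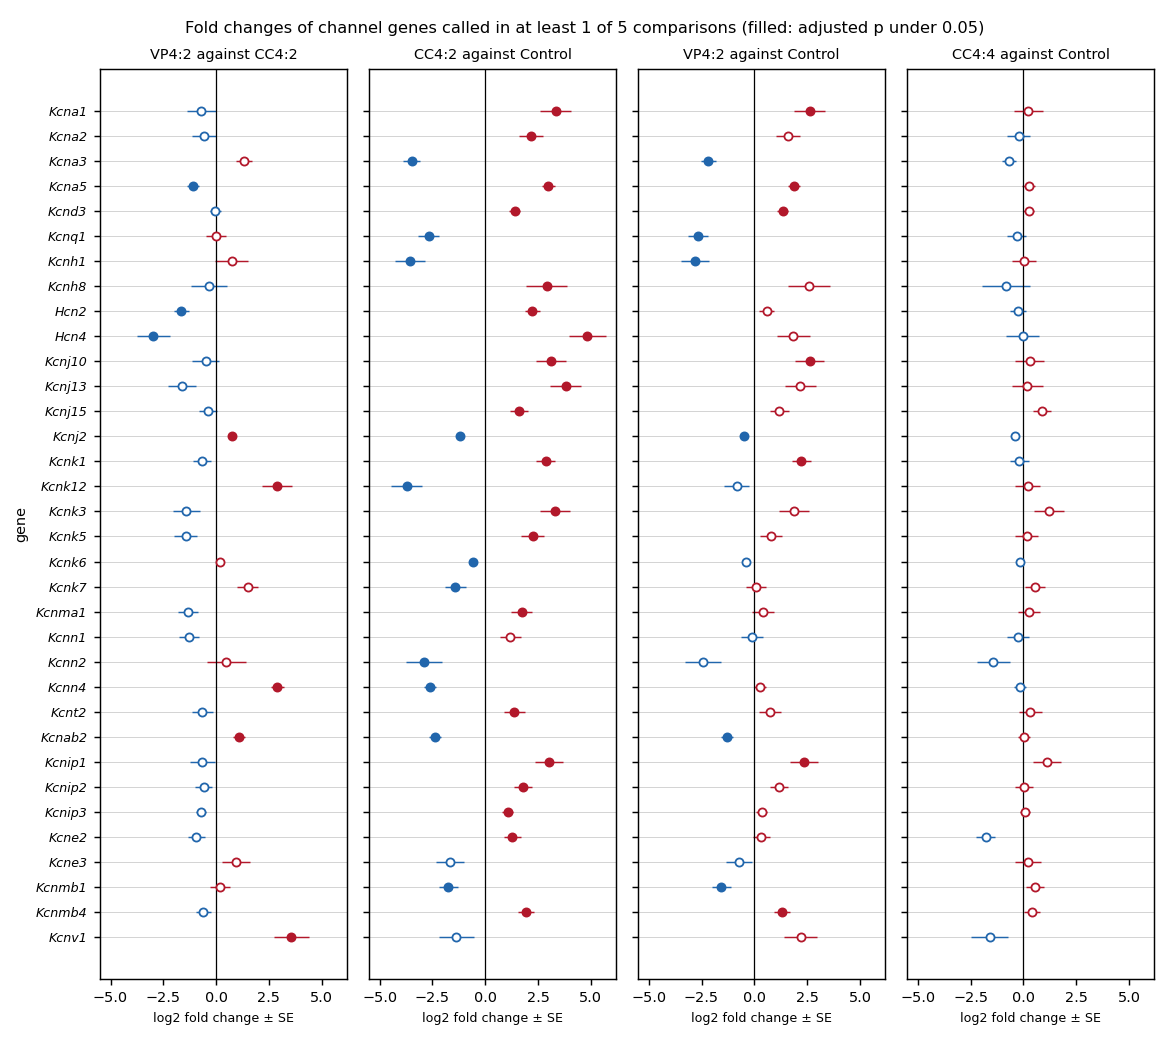
Log2 fold changes, with bars of 1 standard error, of 34 of the 36 channel genes called in at least 1 comparison, in 4 of the 5 comparisons. Filled points passed an adjusted p of 0.05. The panel of CC4:2 against Control spans -3.72 for Kcnk12 to 4.84 for Hcn4, and the panel of CC4:4 against Control holds no filled point.

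Voltage-gated channels of the Kv1 family, the shaker-type channels, held the genes with the most counts. Kcna1 took 0.866% to 32.2% of the summed CPM of the 64 genes in a library. It had 164, 216 and 146 CPM in VP4:2, 393, 250 and 218 CPM in CC4:2, 33.4, 26.6 and 41.4 CPM in CC4:4 and 2.92, 54.7 and 28.3 CPM in Control. Both 4:2 groups lay above every CC4:4 and Control library, and the lowest CC4:2 library was just above the highest VP4:2 library. Kcna1 rose in CC4:2 against Control (log2 fold change 3.33 ± 0.74 SE, adjusted p = 0.0048) and in VP4:2 against Control (2.62 ± 0.72, adjusted p = 0.03). The call in VP4:2 was lost whichever VP4:2 library was left out, and without Control replicate 3. The difference of VP4:2 from CC4:2 was -0.71 ± 0.68, adjusted p = 0.57, and it was not called.

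Kcna2, the usual partner of Kcna1 in axonal channels, had 116, 152 and 103 CPM in VP4:2, 281, 141 and 135 CPM in CC4:2, 33.3, 38.8 and 32.6 CPM in CC4:4 and 9, 72.9 and 41.1 CPM in Control. The 4:2 groups overlapped each other and again lay above all 6 libraries of CC4:4 and Control. Kcna2 rose in CC4:2 against Control (2.18 ± 0.57, adjusted p = 0.011), while VP4:2 against Control gave 1.60 ± 0.56, adjusted p = 0.071. Without Control replicate 1, which had the lowest level of both genes, the CC4:2 fold change was 1.70 for Kcna2 and 2.79 for Kcna1, and both calls held. All 10 Schwann cell markers were higher in CC4:2 and 8 of 10 higher in VP4:2 than in Control.

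Neuron markers did not move as one, and their sum was 53.6 to 69.6 CPM in VP4:2, 29.6 to 154 CPM in CC4:2, 77.2 to 122 CPM in CC4:4 and 47.6 to 133 CPM in Control. Of the 7 tested in CC4:2 against Control, the neurofilament genes Nefl (3.19 ± 1.14, adjusted p = 0.042) and Nefm (3.82 ± 1.24, adjusted p = 0.029) were higher and Stmn2, a tubulin-binding protein of growing axons, was lower (-2.31 ± 0.45, adjusted p = 0.0022). Nefl had 0.219, 0.215 and 0.162 CPM in VP4:2, 42.6, 0.451 and 9.45 CPM in CC4:2, 2.64, 1.42 and 0.889 CPM in CC4:4 and 0.506, 2.65 and 2.67 CPM in Control. CC4:2 replicate 1 was highest in Nefl and Nefm and also in Kcna1 and Kcna2, whereas CC4:2 replicate 2 had 0.451 CPM of Nefl and 0.789 CPM of Nefm. Without CC4:2 replicate 1, Nefl and Nefm gave 1.37 and 1.85 and were not called, while the calls of Kcna1 and Kcna2 held. None (0) of the 7 was called in VP4:2 against Control. The part of Schwann cells or axons in the rises of Kcna1 and Kcna2 was not tested.

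Kcna5, a channel of smooth muscle that has also been described in rodent Schwann cells, was the channel gene with the smallest p in CC4:2 against Control. Its levels were 5.26, 8.16 and 5.3 CPM in VP4:2, 14.5, 14.4 and 11.6 CPM in CC4:2, 2.05, 1.83 and 2.19 CPM in CC4:4 and 1.01, 2.11 and 2.02 CPM in Control. The groups did not overlap except for CC4:4 and Control. Kcna5 rose in CC4:2 (2.99 ± 0.30, adjusted p = 8.2e-05) and in VP4:2 (1.88 ± 0.30, adjusted p = 0.0047) against Control, and it was lower in VP4:2 than in CC4:2 (-1.11 ± 0.28, adjusted p = 0.04). That last call passed in 1 of the 6 fits that left out a library, the one without VP4:2 replicate 2, and was lost with the replicate block (adjusted p = 0.053).

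Kcna3, the voltage-gated channel of T lymphocytes and activated macrophages and microglia, moved the opposite way. It had 15.3, 15.2 and 13.4 CPM in VP4:2, 6.94, 3.05 and 7.57 CPM in CC4:2, 38.8, 51.3 and 32.9 CPM in CC4:4 and 37.7, 74.6 and 85.8 CPM in Control. CC4:2 was lowest in all 3 libraries, VP4:2 next, and CC4:4 and Control overlapped above them. The gene fell in CC4:2 (-3.49 ± 0.38, adjusted p = 1.2e-04) and in VP4:2 (-2.17 ± 0.36, adjusted p = 0.0054) against Control, and both calls held with each library left out. VP4:2 minus CC4:2 was 1.32 ± 0.36 with adjusted p = 0.056, just short of a call. Markers of T and NK cells moved with it, since all 9 tested were lower in CC4:2 and 8 of 9 lower in VP4:2 than in Control. Their sum was 72.3 to 84.6 CPM in VP4:2, 13.0 to 44.7 CPM in CC4:2, 198 to 322 CPM in CC4:4 and 235 to 347 CPM in Control. Markers of other leukocytes were lower as well. In CC4:2 against Control these were 8 of 8 for B and plasma cells, 8 of 8 for neutrophils and 9 of 10 for macrophages, beside 23.2% of all genes. In VP4:2 against Control they were 7 of 8, 7 of 8 and 1 of 10, beside 9.57% of all genes. The part of any of these cells in the fall of Kcna3 was not tested.

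In the RefSeq gene table, Kcna3 and Kcna2 stand side by side with no coding gene between them, as do Kcna5 and Kcna1, and Kcna1 and Kcna6. The first pair moved in opposite directions in CC4:2, and the second pair rose together. Kcna6, a further axonal family member, passed no test. It had 1.75, 0.698 and 0.757 CPM in VP4:2, 1.22, 2.03 and 1.36 CPM in CC4:2, 3.29, 1.69 and 2.33 CPM in CC4:4 and 1.52, 0.312 and 0.404 CPM in Control, and its CC4:4 minus Control difference of 1.66 ± 0.60 had adjusted p = 0.93.

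Since verteporfin acts on the YAP and TEAD pair, the promoters of channel genes were searched for the core TEAD hexamer GGAATG on both strands. RefSeq promoters (GRCr8, 250 bases before to 50 after the start) were on hand for 39 of the 64 genes. The hexamer stood in 4 of the 14 promoters of genes higher in CC4:2 than in Control, 0 of the 7 of genes lower, and 2 of the 18 of genes not called, while 14.2% of all 33469 promoters held it. The promoters of those 4 genes, Kcna5, Hcn2, Kcnj13 and Kcnj15, are printed below. The genes were taken from those called higher in CC4:2 than in Control, so their high level in CC4:2 follows from that choice. Hcn2 and, without the replicate block, Kcna5 were called lower in VP4:2 than in CC4:2, while Kcnj13 and Kcnj15 were not called. The part of TEAD factors in these values was not tested. Capitals mark the hexamer or its reverse complement, and in Hcn2 also a match to the EGR motif GCGNGGGCG. A match describes the letters only and is not a measured binding site.
Kcna5 (chr4:161043760-161044059, minus strand): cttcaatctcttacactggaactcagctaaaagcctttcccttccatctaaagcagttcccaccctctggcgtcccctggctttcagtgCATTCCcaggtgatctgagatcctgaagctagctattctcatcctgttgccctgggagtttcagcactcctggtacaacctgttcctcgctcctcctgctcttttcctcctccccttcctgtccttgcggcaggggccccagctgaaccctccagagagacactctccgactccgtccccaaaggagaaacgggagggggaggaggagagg
Hcn2 (chr7:10639408-10639707, minus strand): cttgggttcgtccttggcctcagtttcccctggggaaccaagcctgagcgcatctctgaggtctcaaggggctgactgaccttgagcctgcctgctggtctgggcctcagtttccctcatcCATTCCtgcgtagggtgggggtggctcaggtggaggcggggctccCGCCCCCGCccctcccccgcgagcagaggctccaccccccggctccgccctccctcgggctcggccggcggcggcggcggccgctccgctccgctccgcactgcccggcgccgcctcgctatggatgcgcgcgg
Kcnj13 (chr9:95518937-95519236, minus strand): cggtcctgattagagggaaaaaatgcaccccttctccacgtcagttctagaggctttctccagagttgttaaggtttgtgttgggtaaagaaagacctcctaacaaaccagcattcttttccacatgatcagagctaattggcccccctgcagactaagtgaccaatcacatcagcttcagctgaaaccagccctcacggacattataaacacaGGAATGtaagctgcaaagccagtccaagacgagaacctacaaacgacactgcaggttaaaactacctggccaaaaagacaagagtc
Kcnj15 (chr11:48070700-48070999, plus strand): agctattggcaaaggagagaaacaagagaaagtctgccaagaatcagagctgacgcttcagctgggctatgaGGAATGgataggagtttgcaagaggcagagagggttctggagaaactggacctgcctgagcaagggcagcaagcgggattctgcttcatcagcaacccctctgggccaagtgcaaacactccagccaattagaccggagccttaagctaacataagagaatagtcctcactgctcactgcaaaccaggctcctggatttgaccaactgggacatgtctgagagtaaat

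Among the other motifs searched, on both strands, the SOX motif ACAAAG stood in 2 of the 14, 2 of the 7 and 3 of the 18 promoters, in the same order of groups, beside 18.8% of all promoters. The EGR motif stood in 2, 0 and 2, beside 5% of all. The AP-1 motif TGANTCA stood in 0, 0 and 1, beside 7.3%, and the NF-kB motif GGGANTTCC in none (0) of the 39, beside 1.6%.

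Kcnd3, a pore subunit of transient A-type current, was higher in both 4:2 groups. It had 6.91, 7.25 and 6.44 CPM in VP4:2, 8.89, 4.51 and 7.73 CPM in CC4:2, 3.52, 2.64 and 3.42 CPM in CC4:4 and 2.98, 2.65 and 2.42 CPM in Control, and the 4:2 groups did not overlap with the rest. Its fold changes were nearly equal, 1.35 ± 0.26, adjusted p = 0.0086 in VP4:2 and 1.39 ± 0.26, adjusted p = 0.002 in CC4:2, both against Control, and both held with each library left out. Its relative Kcnd1 was not called, at -0.64 ± 0.21 in VP4:2 (adjusted p = 0.053) and -0.44 ± 0.21 in CC4:2 (adjusted p = 0.11) against Control.

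Kcnq1, known from heart and epithelia, fell about as far in both 4:2 groups. It had 1.81, 3.06 and 1.84 CPM in VP4:2, 2.17, 2.42 and 2.09 CPM in CC4:2, 9.62, 14.2 and 10.5 CPM in CC4:4 and 4.5, 19.7 and 18.9 CPM in Control. No library of the 4:2 groups reached the lowest of the other 6. The changes against Control were -2.67 ± 0.48 in VP4:2 (adjusted p = 0.0068) and -2.68 ± 0.48 in CC4:2 (adjusted p = 0.0015). Its relative Kcnq5 was not called, with -0.24 ± 0.37 in CC4:2 against Control.

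The EAG-type channels split. Kcnh1 was lower in VP4:2 (-2.80 ± 0.66, adjusted p = 0.017) and in CC4:2 (-3.55 ± 0.71, adjusted p = 0.0027) than in Control, at low levels of 0.219, 0.161 and 0.271 CPM in VP4:2, 0.106, 0.226 and 0.0522 CPM in CC4:2, 1.23, 1.63 and 1.91 CPM in CC4:4 and 3.09, 0.859 and 0.646 CPM in Control. The VP4:2 call was lost whichever VP4:2 library was left out, and without Control replicate 1 the change was -1.76. Kcnh8, an ELK-type channel of neurons, was higher in CC4:2 than in Control (2.91 ± 0.98, adjusted p = 0.033). It had 3.18, 2.04 and 1.08 CPM in VP4:2, 4.24, 1.97 and 1.72 CPM in CC4:2, and at most 0.411 CPM in CC4:4 and 0.937 CPM in Control. The Kcnh8 call was lost without CC4:2 replicate 1, Control replicate 1 or Control replicate 3, and without Control replicate 2 its fold change was 5.18. Kcnh2, the repolarising channel of heart, gave 1.99 ± 0.86 with adjusted p = 0.083.

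Of the HCN pacemaker channel genes, Hcn2 and Hcn4 were higher in CC4:2 than in Control. Hcn4, the main pacemaker channel of the sinoatrial node, showed the largest fold change of the 64 genes. It had 13.5, 16.5 and 21.3 CPM in VP4:2, 105, 174 and 127 CPM in CC4:2, 8.33, 1.83 and 3.69 CPM in CC4:4 and 0.619, 11.4 and 2.42 CPM in Control. Every CC4:2 library was above 100 CPM, every VP4:2 library lay between 13.5 and 21.3 CPM, and the CC4:4 and Control libraries reached no higher than 11.4 CPM. Hcn4 rose in CC4:2 against Control by 4.84 ± 0.86 (adjusted p = 0.0014) and against CC4:4 by 4.86 ± 0.86 (adjusted p = 0.0017). It was lower in VP4:2 than in CC4:2 (-2.98 ± 0.78, adjusted p = 0.047), although the libraries of these 2 groups were far apart. That call was lost whichever of the 6 libraries was left out, with adjusted p up to 0.17 in those fits, and with the replicate block (adjusted p = 0.082). VP4:2 against Control was 1.85 ± 0.78 and not called (adjusted p = 0.12).

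Hcn2, a cAMP-sensitive channel tied to pain in mouse studies of sensory neurons, had 3.07, 2.63 and 1.89 CPM in VP4:2, 11.8, 7.73 and 4.33 CPM in CC4:2, 1.58, 1.36 and 1.3 CPM in CC4:4 and 1.74, 1.8 and 1.53 CPM in Control. Only the CC4:2 libraries reached above 4 CPM. Hcn2 rose in CC4:2 against Control (2.23 ± 0.36, adjusted p = 8.1e-04) and was lower in VP4:2 than in CC4:2 (-1.65 ± 0.35, adjusted p = 0.018). The call between VP4:2 and CC4:2 was lost in 4 of the 6 fits that left out a library, those without CC4:2 replicate 1 or 2 and without VP4:2 replicate 2 or 3.

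The summed level of the perineurial markers moved with Hcn2 and Hcn4. It was 1460 to 2030 CPM in VP4:2, 3740 to 4270 CPM in CC4:2, 432 to 665 CPM in CC4:4 and 328 to 804 CPM in Control. Most of the sum was Itgb4, at 1030 to 1600 CPM in VP4:2 and 2940 to 3430 CPM in CC4:2. Of the 4 markers tested, 3 rose in CC4:2 against Control and 1 fell. The latter was Msln, at 14.1 to 16.6 CPM in CC4:2 and 71.2 to 149 CPM in Control. In VP4:2 against CC4:2, 0 of the 4 markers were called. Their part in the Hcn2 and Hcn4 values was not tested. Of the 7 neuron markers tested, Nefl and Nefm were lower and Stmn2 higher in VP4:2 than in CC4:2. With the replicate block Stmn2 alone was called. With a library left out, the Stmn2 call held only without CC4:2 replicate 1 and the Nefm call only without CC4:2 replicate 2. The Nefl call held only without CC4:2 replicate 2 or 3. CC4:2 replicate 2, with 0.451 CPM of Nefl, had the highest Hcn4 level, and the part of axons in these values was not tested. Pex5l, the auxiliary HCN subunit known as TRIP8b in neurons, rose in CC4:2 against Control (2.86 ± 0.80, adjusted p = 0.015). Its levels were 7.34, 6.55 and 4 CPM in VP4:2, 20.8, 8.85 and 4.49 CPM in CC4:2, 1.41, 1.15 and 0.957 CPM in CC4:4 and 0.112, 1.8 and 2.91 CPM in Control.

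**Figure D3:**
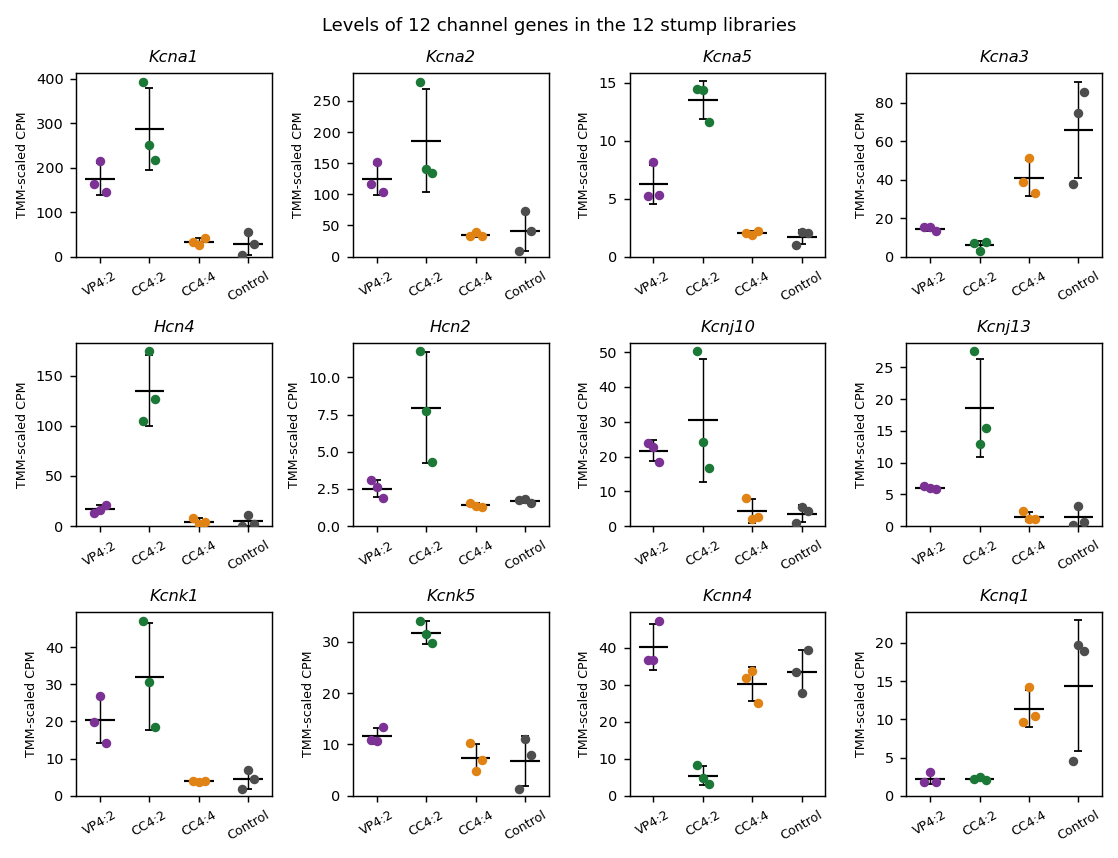
Levels of 12 channel genes in CPM, with 1 point per library, a bar at the mean and error bars of 1 SD (n = 3 in each group). Groups run from left to right as VP4:2, CC4:2, CC4:4 and Control. Hcn4 stands at 105 to 174 CPM in CC4:2 and at no more than 21.3 CPM elsewhere, while Kcnn4 is at 3.24 to 8.21 CPM in CC4:2 and at 25 CPM or above elsewhere.

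Inward rectifiers pass potassium into the cell more readily than out and hold the resting voltage. Of 11 genes, CC4:2 had 3 higher and 1 lower than Control, or 36.4% called beside 43.5% of all genes. Kcnj10, the channel by which glia take up potassium, had 23.8, 22.8 and 18.3 CPM in VP4:2, 50.2, 24.1 and 16.8 CPM in CC4:2, 8.21, 2.03 and 2.53 CPM in CC4:4 and 0.787, 5.62 and 4.28 CPM in Control. Every library of the 4:2 groups lay above every library of CC4:4 and Control, and the 4:2 groups overlapped. The gene rose in VP4:2 (2.62 ± 0.70, adjusted p = 0.027) and in CC4:2 (3.11 ± 0.71, adjusted p = 0.0054) against Control, and the difference of VP4:2 from CC4:2 was -0.49 ± 0.64 (adjusted p = 0.69). The VP4:2 call was lost whichever VP4:2 library was left out, and without Control replicate 3. Kcnj16, which forms joint channels with Kcnj10, was low and not called (-0.28 ± 1.19, adjusted p = 0.87), with a single control library at 2.81 CPM and the other 2 at 0 and 0.0808 CPM.

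Kcnj13, a small-conductance channel known from retinal pigment epithelium and choroid plexus, had 6.36, 5.96 and 5.9 CPM in VP4:2, 27.5, 12.9 and 15.5 CPM in CC4:2, 2.35, 1.08 and 1.09 CPM in CC4:4 and 0.169, 3.2 and 0.727 CPM in Control. CC4:2 was above VP4:2 in every library, and VP4:2 was above the rest. The rise in CC4:2 against Control was 3.80 ± 0.75 (adjusted p = 0.0025), while VP4:2 gave 2.18 ± 0.72 against Control (adjusted p = 0.057) and -1.62 ± 0.66 against CC4:2 (adjusted p = 0.18). The gene overlaps Gigyf2 in the RefSeq table, and the use of strand in counting is not stated, so its counts are uncertain. Kcnj15, a relative of Kcnj10 found in epithelia, rose in CC4:2 against Control (1.58 ± 0.43, adjusted p = 0.013). It had 18.5, 21.6 and 22.7 CPM in VP4:2, 24.9, 29.4 and 27.9 CPM in CC4:2, 9.33, 17.8 and 23.4 CPM in CC4:4 and 14.7, 9.14 and 3.55 CPM in Control.

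Kcnj2, the strong rectifier of muscle, endothelium and macrophages, was the inward rectifier with the tightest replicates. It had 26, 24 and 28.6 CPM in VP4:2, 16.1, 15.7 and 15.8 CPM in CC4:2, 26.1, 25.1 and 31.3 CPM in CC4:4 and 30.5, 39.1 and 40.5 CPM in Control. The 3 CC4:2 libraries lay within 15.7 to 16.1 CPM, below the other 9. Kcnj2 fell in CC4:2 against Control (-1.21 ± 0.14, adjusted p = 1.6e-04) and by less in VP4:2 (-0.49 ± 0.14, adjusted p = 0.035). It was higher in VP4:2 than in CC4:2 (0.73 ± 0.14, adjusted p = 0.012), a call lost only without VP4:2 replicate 3 among the 6 libraries. The VP4:2 call against Control passed in 1 of the 6 fits with a library left out. Kcnj8, which with Abcc9 forms the ATP-sensitive channel of pericytes and smooth muscle, was not called (0.64 ± 0.36, adjusted p = 0.17 in CC4:2 against Control), whereas Abcc9 rose (0.90 ± 0.24, adjusted p = 0.011). Kcnj5, Kcnj9 and Kcnj14 were not called in any comparison, and none had a library above 2.89 CPM.

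Two-pore-domain channels carry the background leak of potassium. Of the 9 genes, 3 rose and 3 fell in CC4:2 against Control, or 66.7% beside 43.5% of all genes. Kcnk1 had 19.9, 26.7 and 14.3 CPM in VP4:2, 47.1, 30.6 and 18.4 CPM in CC4:2, 3.99, 3.59 and 3.97 CPM in CC4:4 and 1.91, 6.95 and 4.44 CPM in Control. Both 4:2 groups were clear of the rest, and the gene rose in VP4:2 (2.21 ± 0.45, adjusted p = 0.01) and in CC4:2 (2.86 ± 0.46, adjusted p = 8.1e-04) against Control, with each library left out as well. Kcnk5, an alkaline-activated leak channel, had 10.9, 10.6 and 13.4 CPM in VP4:2, 34.1, 31.6 and 29.8 CPM in CC4:2, 10.3, 4.88 and 6.98 CPM in CC4:4 and 1.35, 11 and 7.92 CPM in Control. CC4:2 was far above VP4:2, whose lowest library was just below the highest control. Kcnk5 rose in CC4:2 against Control (2.25 ± 0.55, adjusted p = 0.0076), and VP4:2 minus CC4:2 was -1.45 ± 0.53 and not called (adjusted p = 0.14). Kcnk3, an acid-sensitive leak channel, rose in CC4:2 against Control (3.30 ± 0.72, adjusted p = 0.0043), with an uneven 2.54, 11.8 and 5.22 CPM in CC4:2 and 0.337, 0.781 and 0.888 CPM in Control.

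The leak genes that fell were Kcnk12, Kcnk7 and Kcnk6. Kcnk12, which gives little current alone, was lower in CC4:2 than in Control (-3.72 ± 0.73, adjusted p = 0.0024) and higher in VP4:2 than in CC4:2 (2.88 ± 0.73, adjusted p = 0.042). It had 1.32, 1.18 and 0.433 CPM in VP4:2, 0.106, 0.169 and 0.104 CPM in CC4:2, 1.94, 2.17 and 1.91 CPM in CC4:4 and 3.49, 0.625 and 1.05 CPM in Control. The call between VP4:2 and CC4:2 held in 1 of the 6 fits with a library left out, the one without VP4:2 replicate 3, and was lost with the replicate block (adjusted p = 0.052). Kcnk6, reported in mouse macrophages as a route of potassium efflux, fell by 0.57 ± 0.14 on the log2 scale in CC4:2 against Control (adjusted p = 0.0075), a call that library totals without TMM removed. It overlaps another coding gene in RefSeq. Kcnk7 fell too (-1.41 ± 0.49, adjusted p = 0.038), but the call was lost without CC4:2 replicate 1 or 2 or Control replicate 2 or 3.

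The stretch-gated leak genes Kcnk2 and Kcnk4 were not called in any comparison. Kcnk2 had 10.7, 7.36 and 2.7 CPM in VP4:2, 6.41, 6.48 and 3.71 CPM in CC4:2, 2.88, 4.47 and 5.95 CPM in CC4:4 and 2.47, 3.59 and 2.1 CPM in Control. Its difference from Control was 1.34 ± 0.48 in VP4:2 (adjusted p = 0.072) and 1.02 ± 0.47 in CC4:2 (adjusted p = 0.1). Kcnk4, reported at nodes of Ranvier in rat, gave -0.28 ± 0.58 in VP4:2 and 0.34 ± 0.57 in CC4:2 against Control. Kcnk13, the leak channel of microglia that keeps their surveying processes moving, had 5.32, 5.48 and 7.63 CPM in VP4:2, 2.28, 3.78 and 3.24 CPM in CC4:2, 4.34, 3.52 and 6.43 CPM in CC4:4 and 5, 5.39 and 3.39 CPM in Control. It was highest in VP4:2, where its difference from CC4:2 of 0.99 ± 0.30 missed a call (adjusted p = 0.088).

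Calcium-activated channels held the clearest difference between the verteporfin-loaded and the plain 4:2 conduit. Kcnn4, the intermediate-conductance channel that supports calcium entry in T cells and macrophages, had 36.8, 36.7 and 47.4 CPM in VP4:2, 8.21, 4.85 and 3.24 CPM in CC4:2, 31.8, 33.7 and 25 CPM in CC4:4 and 33.4, 27.7 and 39.3 CPM in Control. The 3 CC4:2 libraries lay below 9 CPM and the other 9 between 25 and 47.4 CPM. Kcnn4 was higher in VP4:2 than in CC4:2 (2.89 ± 0.30, adjusted p = 4.6e-04), and it was the only one of the 8 calls in that comparison to pass in every setting tried. It fell in CC4:2 against Control (-2.62 ± 0.30, adjusted p = 1.5e-04), and VP4:2 minus Control was 0.27 ± 0.28 (adjusted p = 0.53).

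Macrophage markers moved in the same comparisons as Kcnn4. Of 10 markers, 8 were higher in VP4:2 than in CC4:2 and 9 lower in CC4:2 than in Control, and 1 of 10 was lower in VP4:2 than in Control. Their part in the Kcnn4 values was not tested. Kcna3, the other immune-cell channel, was called lower in VP4:2 than in Control while Kcnn4 was not. Whether these 2 genes differed in this was not tested.

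The small-conductance channels Kcnn1 to Kcnn3 gave 1 call against Control. Kcnn2 was lower in CC4:2 (-2.91 ± 0.86, adjusted p = 0.02), on 0.159, 0.395 and 0.104 CPM in CC4:2 and 0.225, 3.59 and 1.29 CPM in Control, and the call was lost without Control replicate 2, where the change was -1.71, and without CC4:2 replicate 1 or 3. Kcnn1 and Kcnn3 gave 1.18 ± 0.49 and -0.10 ± 0.54, neither called. Kcnma1, the large-conductance channel opened by calcium and voltage together, had 0.877, 1.93 and 0.811 CPM in VP4:2, 2.59, 3.38 and 3.08 CPM in CC4:2, 1.58, 0.745 and 0.957 CPM in CC4:4 and 0.394, 1.25 and 1.13 CPM in Control. CC4:2 was above all other libraries. It rose in CC4:2 against Control (1.72 ± 0.50, adjusted p = 0.018), and VP4:2 minus CC4:2 was -1.32 ± 0.48 and not called (adjusted p = 0.14).

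Its beta subunits went opposite ways. Kcnmb4, the neuronal form, rose in CC4:2 (1.93 ± 0.37, adjusted p = 0.0023) and in VP4:2 (1.32 ± 0.37, adjusted p = 0.033) against Control. Kcnmb1, the smooth muscle form that raises calcium sensitivity, fell in CC4:2 (-1.74 ± 0.47, adjusted p = 0.012) and in VP4:2 (-1.56 ± 0.46, adjusted p = 0.04). It had 1.43, 1.4 and 1.19 CPM in VP4:2, 0.741, 1.41 and 1.41 CPM in CC4:2, 4.34, 6.03 and 6.91 CPM in CC4:4 and 7.2, 2.26 and 2.34 CPM in Control. Without Control replicate 1, the library at 7.2 CPM, the changes were -0.95 in CC4:2 (adjusted p = 0.045) and -0.78 in VP4:2 (adjusted p = 0.12). Kcnmb1 and Kcnip1 overlap in RefSeq and moved in opposite directions in CC4:2, and reads of the one may have been counted for the other. For both beta subunits the VP4:2 calls did not hold with every library left out. Of 7 smooth muscle markers, 1 was higher and 0 lower in CC4:2 than in Control, beside 20.3% and 23.2% of all genes. Their sum was 924 to 2420 CPM in VP4:2 and 662 to 1340 CPM in CC4:2. It was 1420 to 1500 CPM in CC4:4 and 741 to 1640 CPM in Control, with 1640 CPM in Control replicate 1. The part of smooth muscle in the Kcnmb1 values was not tested. Of the sodium-activated channels, Kcnt2 was called higher in CC4:2 (1.38 ± 0.51, adjusted p = 0.049), a call that held in 2 of the 6 fits with a library left out, and Kcnt1 was not called (-0.53 ± 0.42, adjusted p = 0.33).

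Auxiliary subunits set how Kv pores reach the membrane and how fast they open and close. Of 12, CC4:2 had 5 higher and 2 lower than Control, or 58.3% beside 43.5% of all genes. Kcnab2, the beta subunit that carries Kv1 channels into axons and is also made by leukocytes, had 11.6, 11.8 and 9.95 CPM in VP4:2, 4.92, 5.64 and 5.22 CPM in CC4:2, 29.7, 34 and 20.6 CPM in CC4:4 and 15.7, 33.3 and 33.8 CPM in Control. CC4:2 was lowest, VP4:2 next and the other 2 groups highest, with no overlap between these 3 levels. Kcnab2 fell in CC4:2 (-2.39 ± 0.29, adjusted p = 1.9e-04) and in VP4:2 (-1.31 ± 0.28, adjusted p = 0.012) against Control and was higher in VP4:2 than in CC4:2 (1.08 ± 0.28, adjusted p = 0.048). The last call was lost with each library left out and with the replicate block (adjusted p = 0.063), and the VP4:2 call against Control was lost without Control replicate 3. The gene overlaps Nphp4 in RefSeq. Kcnab1, the inactivating beta subunit, was not called in any comparison, at 7.63 to 9.85 CPM in VP4:2, 6.94 to 7.73 CPM in CC4:2, 4.61 to 9.3 CPM in CC4:4 and 3.39 to 10.6 CPM in Control. Its log2 fold change in CC4:2 against Control was 0.05 ± 0.36, adjusted p = 0.93. Kcnab3 was at or under 1.29 CPM in every library and not called.

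The calcium-sensing partners of Kv4 pores rose with Kcnd3. In CC4:2 against Control, Kcnip1 (3.01 ± 0.67, adjusted p = 0.005), Kcnip2 (1.77 ± 0.42, adjusted p = 0.0065) and Kcnip3 (1.06 ± 0.25, adjusted p = 0.0063) were called and Kcnip4 was not (1.24 ± 0.83, adjusted p = 0.25). That made 75% called beside 43.5% of all genes. Kcnip3, which also acts as a transcriptional repressor, had 3.73, 3.54 and 3.35 CPM in VP4:2, 6.3, 5.41 and 5.64 CPM in CC4:2, 2.23, 2.57 and 3.97 CPM in CC4:4 and 3.21, 2.42 and 2.67 CPM in Control. Of the MinK-related subunits, Kcne2 had 2.58, 1.93 and 1.41 CPM in VP4:2, 5.08, 3.95 and 2.4 CPM in CC4:2, 0.528, 0.542 and 0.274 CPM in CC4:4 and 1.01, 2.11 and 1.62 CPM in Control. Every CC4:4 library was below every other library. Kcne2 rose in CC4:2 against CC4:4 (3.06 ± 0.45, adjusted p = 6.9e-04) and, less firmly, against Control (1.28 ± 0.41, adjusted p = 0.027), a call lost without CC4:2 replicate 1 or 2 or Control replicate 1 or 3. Its CC4:4 minus Control difference of -1.79 ± 0.45 had the smallest unadjusted p of the 64 genes in that comparison (0.0024) and adjusted p = 0.93. Kcne3 and Kcne4 were not called against Control in any group.

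Modifier subunits form no channel alone and alter the currents of other Kv pores. Of the 6, none (0) was called against Control in either 4:2 group, beside 43.5% of all genes in CC4:2 and 18.9% in VP4:2. Kcnv1 was called higher in VP4:2 than in CC4:2 (3.56 ± 0.83, adjusted p = 0.03). It had 4.22, 1.4 and 7.3 CPM in VP4:2, 0.159, 0.395 and 0.522 CPM in CC4:2, 0.176, 0.0678 and 0.684 CPM in CC4:4 and 0.9, 0.39 and 1.53 CPM in Control. VP4:2 was uneven and its lowest library was below the highest control, and the call was lost in 5 of the 6 fits with a library left out, all but the one without VP4:2 replicate 2. Kcns3 had the most counts of the 6 and ranged from 3.28 to 9.85 CPM over the 12 libraries without a call. Kcnf1, Kcng1, Kcng2 and Kcng4 had no library above 1.86 CPM and were not called.

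A group of 4 channel genes varied within groups far more than between them. Kcna7, Kcnc4, Kcnj11 and Kcnj12, known from skeletal muscle among other tissues, were high in VP4:2 replicates 1 and 2, CC4:2 replicate 2 and Control replicate 3. Kcna7 had 6.85, 6.82 and 0.162 CPM in VP4:2, 0.582, 6.6 and 0.157 CPM in CC4:2, 0.998, 2.3 and 0.342 CPM in CC4:4 and 0.562, 1.33 and 10.1 CPM in Control. Kcnj11, the pore of the muscle ATP-sensitive channel, had 6.63, 10.7 and 0.92 CPM in VP4:2, 4.24, 11.1 and 0.94 CPM in CC4:2, 1.11, 1.9 and 0.205 CPM in CC4:4 and 0.112, 1.64 and 9.13 CPM in Control. Skeletal muscle markers were summed at 5030, 6160 and 189 CPM in VP4:2, 984, 10000 and 177 CPM in CC4:2, 1200, 2510 and 195 CPM in CC4:4 and 4.55, 689 and 7000 CPM in Control. Within VP4:2, CC4:2 and Control, the libraries high in the markers were those high in these 4 channels, and the part of muscle in their levels was not tested. None (0) of the 4 was called in any comparison, nor were any of the 6 tested muscle markers.

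**Figure D4:**
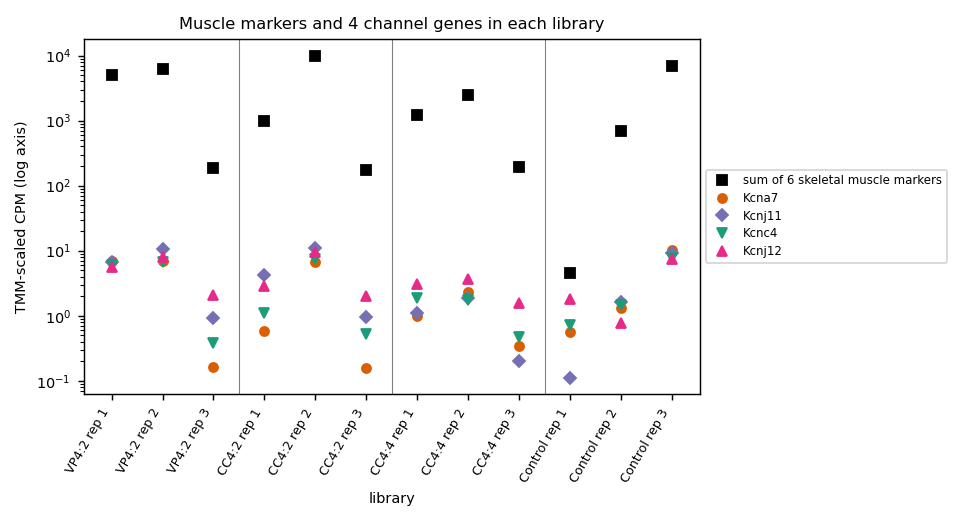
Summed level of the skeletal muscle markers and levels of Kcna7, Kcnj11, Kcnc4 and Kcnj12 in each library, in CPM on a log axis, with libraries from left to right as VP4:2, CC4:2, CC4:4 and Control. The peaks fall in the same libraries, such as CC4:2 replicate 2 at 10000 CPM for the markers and 11.1 CPM for Kcnj11.

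Proteins that gather channels along the axon, or hold them there, were followed as a list of 17 genes. In CC4:2 against Control 14 of the 16 tested were higher and 0 lower (87.5% beside 43.5% of all genes), with a median of 1.64 beside -0.05 for all genes. Nfasc, an adhesion protein of the node and paranode, averaged 160 ± 67 CPM in CC4:2 and 14.9 ± 12.6 CPM in Control (SD, n = 3 each), a rise of 3.44 ± 0.72 (adjusted p = 0.0035). Ank3, the scaffold of the node, rose by 2.38 ± 0.33 (adjusted p = 4.0e-04), and Adam23, a partner of LGI ligands in Kv1 complexes, rose by 1.77 ± 0.24 (adjusted p = 3.6e-04). In VP4:2 against Control 5 of 16 were higher (31.2% beside 18.9% of all genes), Nfasc at 2.60 ± 0.70 (adjusted p = 0.028) and Ank3 at 1.83 ± 0.33 (adjusted p = 0.0067) among them. In VP4:2 against CC4:2 none (0) of the 16 was called, and their median was -0.56. The summed level of the list was 391 to 558 CPM in VP4:2, 494 to 922 CPM in CC4:2, 220 to 237 CPM in CC4:4 and 183 to 296 CPM in Control. All 10 Schwann cell markers also rose in CC4:2 against Control, and the part of Schwann cells or axons in these values was not tested.

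Of 16 other auxiliary subunits and regulators, 11 were tested. CC4:2 had 3 higher than Control, which were Pex5l, Abcc9 and Nedd4l, a ubiquitin ligase that removes channels from the membrane (0.66 ± 0.15, adjusted p = 0.005). It had 2 lower, among them the anchoring protein gene Akap5 (-1.81 ± 0.52, adjusted p = 0.017). The share called, 45.5%, was near the 43.5% of all genes. Nedd4l was the only one called in VP4:2 against CC4:2, where it was lower (-0.72 ± 0.15, adjusted p = 0.017).

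The sodium-potassium pump and the cation-chloride cotransporters, which build and use the potassium gradient, gave 16 tested genes. In VP4:2 against CC4:2 4 were higher and 0 lower (25% beside 6.23% of all genes). With the replicate block 5 were called, the same 4 higher and a cotransporter gene lower (adjusted p = 0.034, beside 0.073 without the block). Atp1b1, a pump beta subunit, had 287, 210 and 371 CPM in VP4:2, 45.8, 28.5 and 29.9 CPM in CC4:2, 82, 43.9 and 98.1 CPM in CC4:4 and 87.9, 80.3 and 102 CPM in Control. All VP4:2 libraries lay far above the other 9. The difference of VP4:2 from CC4:2 was 3.06 ± 0.33 (adjusted p = 4.9e-04). The pump regulators Fxyd5 (1.36 ± 0.15, adjusted p = 5.5e-04) and Fxyd2 (1.16 ± 0.17, adjusted p = 0.002) were also higher.

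In CC4:2 against Control 6 of these 16 genes were higher and 4 lower (62.5% beside 43.5% of all genes). Fxyd6 rose (2.96 ± 0.41, adjusted p = 3.7e-04), with the cotransporter gene Slc12a2 (1.31 ± 0.20, adjusted p = 6.2e-04), while Fxyd5 fell (-1.77 ± 0.15, adjusted p = 3.9e-05). In VP4:2 against Control 8 were higher and 0 lower (50% beside 18.9% of all genes). Atp1b1 was thus higher in VP4:2 (1.68 ± 0.31, adjusted p = 0.0074) and lower in CC4:2 (-1.37 ± 0.31, adjusted p = 0.0051) than in the same control libraries.

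Summed over the 64 channel genes, libraries held 664.3, 773.4 and 637.7 CPM in VP4:2, 1220, 1007 and 839 CPM in CC4:2, 425.8, 400.5 and 431.2 CPM in CC4:4 and 337.6, 526 and 470.2 CPM in Control. CC4:2 was above VP4:2 in every library, and VP4:2 above the other 2 groups, which overlapped. Without Kcna1 the sums were 492 to 557.5 CPM in VP4:2, 621.4 to 827.3 CPM in CC4:2, 374 to 392.4 CPM in CC4:4 and 334.6 to 471.2 CPM in Control, in the same order.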

How the data were processed

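Poly(A) RNA was sequenced from 12 stumps of rat sciatic nerve as pairs of 150 bases, per the labels' protocols, with replicates 1 and 2 of every group on a NovaSeq X Plus and replicate 3 on a DNBSEQ-T7. The authors deposited expected counts per gene without normalization, and 9.44% to 11.1% of the values in a library were not whole. HISAT2, StringTie, RSEM and DESeq2 were used, per the submitters' processing notes, while the build and annotation are not given in the sources used here. Of 12 identical files, 1 was read and 11 were not used. Value columns outside the 12 samples numbered 0.

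Counts were rounded to whole numbers and tested with edgeR 4.0.16 in R 4.3.3 (TMM, filterByExpr, quasi-likelihood test). A single fit of all 12 samples had group terms, no covariate and 8 residual degrees of freedom, and covered 15712 genes. Calls were made at a Benjamini-Hochberg adjusted p under 0.05 over all of them. Fold changes are log2, and each standard error (SE) was obtained by dividing the fold change by the root of its F statistic. Replicates of a group differed beyond sampling noise (chi-square per degree of freedom of 49.7 to 336). Same-numbered samples of VP4:2 and CC4:2 deviated from their group means together (r of 0.119 to 0.433 in 3 of 3 pairs). For that comparison the replicate number was therefore taken to pair them in a further fit, the replicate block. Values of that fit are given only where the block is named. All other values of VP4:2 against CC4:2 come from the fit without it. This pairing is uncertain, since CC4:2 replicate 2 with VP4:2 replicate 1 gave 0.183, above the 0.119 of the replicate 1 pair. The labels name no shared animal or day, and the replicate number partly follows the platform. In no other comparison did all 3 same-numbered pairs exceed 0.1.

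Statistics are given for channel genes called with a mean of at least 1 CPM, up to 12 per direction and comparison or the 5 of smallest p, for a fixed list of genes, and for up to 4 called genes per pathway list. Where the text gives them for other channel genes, these were chosen after their values were seen. The channel genes and lists were chosen with earlier results of these data known. Symbols came from the deposited table, and neighbours, overlaps and promoters from RefSeq (GRCr8), where all 64 symbols were found. Some genes are counted but not reported by name here. Alternatives were RLE factors, library totals, no low-count filter, DESeq2, limma-voom, only the 6 samples compared, a replicate block, a platform term, NovaSeq X Plus samples only and each library left out.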

Additional observations from a re-analysis of the deposited data

How the results depend on the processing

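No channel gene changed its direction among its called comparisons under any setting tried. Leaving out each library in turn gave 30 to 34 calls in CC4:2 against Control, 24 to 30 in CC4:2 against CC4:4, 6 to 17 in VP4:2 against Control, 2 to 4 in VP4:2 against CC4:2 and 0 to 1 in CC4:4 against Control, where the 1 call came without Control replicate 1. The NovaSeq X Plus samples alone gave 16, 18, 0, 1 and 0 calls in the same order of comparisons. For VP4:2 against Control, DESeq2 gave 24 and the fit of only the 6 samples compared gave 8, beside 14. For VP4:2 against CC4:2, DESeq2 gave 13, the replicate block 4 and the platform term 5, beside 8. The causes were not tested. Library totals without TMM shifted the median of all genes by 0.205 in CC4:2 against Control, 0.213 in CC4:2 against CC4:4 and 0.236 in VP4:2 against Control, where the split of calls was then 14 higher and 4 lower in place of 8 and 6. Replicate numbers were taken to pair the samples of VP4:2 and CC4:2 only. Over all groups 7 of the 18 same-numbered pairs correlated over 0.1 (range -0.402 to 0.433). Pairs of unlike numbers also did so, such as CC4:4 replicate 2 with Control replicate 3 at 0.404. With the replicate block the counts in the other comparisons were 32, 29, 13 and 0 for CC4:2 against Control, CC4:2 against CC4:4, VP4:2 against Control and CC4:4 against Control. Apart from the replicate block in VP4:2 against CC4:2, the shares of all genes called in these settings are not given here. The counts thus do not show whether the channel genes moved more than other genes. Genes near 1 CPM rest on few counts.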
